A study of Homo sapiens with 12 samples.

Results

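The genes described here are 9 NRF2 target genes of detoxification and antioxidant defence, NQO1, AKR1B10, AKR1C1, AKR1C2, AKR1C3, GCLM, TXNRD1, SRXN1 and SLC7A11. They were chosen by name and matched by Ensembl identifier to the rows of the deposited table, which holds 20595 genes. Of the 9 genes, 8 had a row. SRXN1, sulfiredoxin, was not analysed here. RNA was measured in A549, a lung adenocarcinoma (LUAD) line with p53 WT, and in H1792, a LUAD line with p53 mutant, both listed as MDM2 amplified. Each line received DMSO, the vehicle, or RG7112, a small molecule that keeps MDM2 from binding p53, at 1 μM for 48 h. Every combination of line and treatment had 3 samples, 12 in all. The column names of the table carry a dose of 0.1 μM, and the dose of the sample labels and the study's methods was used. The labels give RPMI medium for both lines, whereas the study's methods give DMEM for A549 and RPMI for H1792. Cell line and medium cannot be told apart in the comparison between the lines if the methods hold. Each p53 status was represented by a single cell line, so p53 status cannot be told apart from any other difference between A549 and H1792.

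NRF2, encoded by NFE2L2, is a transcription factor that is held low by KEAP1, which marks it for degradation. Oxidants and electrophiles release it, and it then binds, with a small MAF protein, to antioxidant response elements in genes of detoxification, glutathione synthesis, thioredoxin recycling and NADPH supply. In lung adenocarcinoma the pathway is often switched on by mutations of KEAP1 or NFE2L2, and A549 is known as a line that carries a KEAP1 mutation. The study gives no KEAP1 status for either line. Whether H1792 carries such a mutation was not examined, so the lines are not presented here as mutant against wild type for KEAP1. Control of NRF2 acts mostly on the protein, and mRNA counts do not measure it.

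The antioxidant response element was looked for because it is the site through which NRF2 acts on these genes. The core searched was TGACNNNGC on both strands, within windows that reach from 250 bases before to 50 bases after each start site in RefSeq (GRCh38.p14). Of the 9 genes, 7 had a window, and 2 of these 7, GCLM and TXNRD1, held the core. Among all genes with a window, 16.1% held it. A core outside the window was not searched for, and a match is not evidence of binding. One match for each start site is printed, with the core in capitals, read along the strand of the gene, so that a core on the opposite strand appears as its reverse complement. They lay 26 bases before the start in GCLM (chr1:93909446-93909474, minus strand, overlapping an annotated exon), 91 bases before the first of the TXNRD1 starts (chr12:104215670-104215698, plus strand, outside exons) and 94 bases before the other (chr12:104286920-104286948, plus strand, within an annotated exon). The window of the first TXNRD1 start held 1 more match, on the opposite strand and reaching the start site, which is not printed.
GCLM: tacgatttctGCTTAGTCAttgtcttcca
TXNRD1, first start: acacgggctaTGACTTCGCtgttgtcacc
TXNRD1, other start: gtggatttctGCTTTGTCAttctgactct

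AKR1C1 and AKR1C2 are neighbouring and near-identical genes, and how far reads can be assigned to each matters for every value below. Their upstream sequences were alike: 245 of 246 aligned bases (99.6%) of the 250 upstream bases were identical, whereas AKR1C3 shared 76.8% to 79.5% with either of them. The stretch outside exons is shown because it holds no base that differs between AKR1C1 (chr10:4963169-4963252, plus strand) and AKR1C2 (chr10:5004024-5004107, minus strand).
AKR1C1 and AKR1C2: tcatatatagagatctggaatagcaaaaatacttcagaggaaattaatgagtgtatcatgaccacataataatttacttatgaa
Within the transcripts, 58.7% of the 31-base words of AKR1C2 also occurred in AKR1C1, and 32.9% of those of AKR1C1 in AKR1C2. AKR1C3 shared 10.4% with AKR1C2. kallisto divides such words between the genes by an estimate, so the split between AKR1C1 and AKR1C2 is less certain than their sum. AKR1B10 shared 21.7% with AKR1B15, NQO1 16.5% with the antisense gene AC092115.2, and SLC7A11 8.47% with SLC7A11-AS1, while GCLM shared 6.37% and TXNRD1 0.408% with any other gene. Whether counting used the strand is not given in the sources used here, so reads from the stretches where NQO1, SLC7A11 and AKR1C2 overlap antisense genes (AL391427.1 for AKR1C2) cannot be told apart from reads of those genes.

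The samples held 2011916 to 6218825 counts each. MDM2, itself a p53 target, had 8.54 ± 4.99 CPM (counts per sample scaled to a common library size and normalised by TMM, mean ± SD, n = 3) in A549 with DMSO and 69.2 ± 9.27 with RG7112, against 11.2 ± 4.51 and 10.2 ± 1.495 in H1792. CDKN1A, the p53 target that encodes p21, had 45.0, 42.5 and 24.2 CPM in the 3 A549 samples with DMSO and 203.0, 189.7 and 942 CPM with RG7112, against means of 7.64 and 7.89 CPM in H1792. Both rose in A549, by log2 fold changes of 3.00 and 3.58 (edgeR adjusted p = 0.0102 and 0.0252), and in H1792 they gave -0.05 and 0.15 (adjusted p = 0.928 and 0.882). The calls in A549 were lost without single samples, MDM2 without DMSO replicate 2 (adjusted p = 0.0534) and CDKN1A without any of the DMSO replicates (0.0867 to 0.096). Replicate 3 of A549 stood apart from replicates 1 and 2 with either treatment: the counts of replicates 1 and 2 differed by 5.38 to 5.93 times what counting alone gives (chi-square per degree of freedom), and those of replicate 3 from them by 17.2 to 25.6 times. Of 6 epithelial markers all passed 3 counts in some A549 sample of each treatment, while CDH1, which encodes E-cadherin, did not in H1792 with DMSO. EPCAM was higher in H1792, with means of 2.27 CPM with DMSO and 5.04 CPM with RG7112, against 0.67 and 0.62 CPM in A549. The list's summed level was 14480 to 24070 CPM in A549 and 1069 to 2185 CPM in H1792. The alveolar markers NKX2-1, SFTPA1, SFTPB and SFTPC had 3 counts or fewer in every sample. NAPSA, the remaining alveolar marker listed, had 9, 13 and 6 counts in A549 with DMSO and 26, 6 and 21 with RG7112. In H1792 it had at most 3 counts. COL1A1 and COL1A2 brought the fibroblast list to 1117 to 1426 CPM in H1792, against 1.91 to 9.22 CPM in A549. DCN and LUM stayed at or below 3 counts in H1792. COL3A1 had 0, 7 and 0 counts there with DMSO and 0, 0 and 8 with RG7112. PDGFRB had 0, 4 and 2 counts there with DMSO and 16, 20 and 27 with RG7112. Of the immune markers, PTPRC, CD3E and LYZ stayed at or below 3 counts throughout. CD68, a lysosomal protein abundant in macrophages, had 35.0, 19.8 and 10.7 CPM in A549 with DMSO and 49.8, 44.3 and 104 CPM with RG7112 (1.61 on the log2 scale, edgeR adjusted p = 0.102, and 0.0159 in DESeq2), against 7.23 to 18.3 CPM over all H1792 samples. The values of these markers are given as measured, and their part in the results was not tested.

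The first question was how much of each gene the lines expressed without the drug. In A549, 5 of the 8 genes measured were differentially expressed genes (DEGs, adjusted p under 0.05 and absolute log2 fold change over 1) against H1792, AKR1B10, AKR1C2, AKR1C3, GCLM and TXNRD1, and all 5 were higher in A549. NQO1 and AKR1C1 were also higher, with smaller differences, and SLC7A11 was not past the threshold. Over all 10330 genes tested, 35.5% were DEGs between the lines and 49.7% passed the adjusted p alone, which 7 of the 8 genes did. The median difference of the 8 genes was 1.62 on the log2 scale and that of all genes tested 0.076. The plot of levels by sample shows the values.

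**Figure D1:**
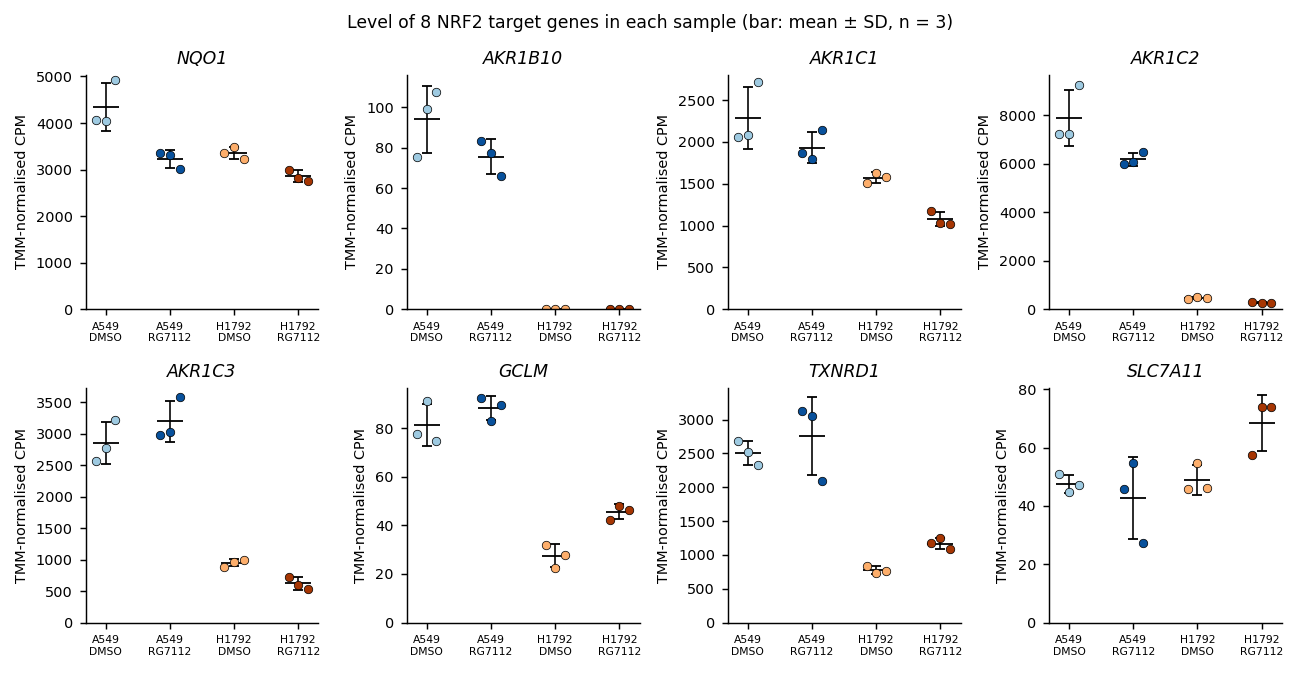
TMM-normalised CPM (y axis, linear from 0) of 8 NRF2 target genes in each of the 12 samples, grouped by cell line and treatment; points are samples and bars the mean ± SD of 3. AKR1C2 lay between 7211 and 9227 CPM in A549 with DMSO and between 427 and 490 CPM in H1792, and AKR1B10 had no count in the H1792 samples with DMSO.

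AKR1B10 (ENSG00000198074, chr7:134527592-134541408), an aldo-keto reductase that reduces aldehydes and retinals, had 75.6, 99.2 and 108 CPM in the A549 samples with DMSO. In H1792 it had 0 counts in all 3 samples with DMSO, and 1 count in 1 of the 3 samples with RG7112. Against a floor of 3 counts per library it was at least 92.4-fold higher in A549 (edgeR adjusted p = 8.61e-05). It was not detectable in H1792 at this depth, and its response there could not be tested.

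AKR1C1, AKR1C2 and AKR1C3 encode aldo-keto reductases that reduce steroids, prostaglandins and carbonyl products of lipid oxidation, and lie next to each other on chromosome 10. AKR1C2 (ENSG00000151632, chr10:4987400-5018031) had 7211, 7218 and 9227 CPM in A549 and 427, 490 and 474 CPM in H1792. It was 17.5-fold higher in A549, a log2 difference of 4.13 (SE 0.13, adjusted p = 6.56e-06). AKR1C3 (ENSG00000196139, chr10:5035354-5107686) had 2566, 2774 and 3219 CPM against 889, 969.8 and 999 CPM. Its log2 difference was 1.63 (SE 0.10, adjusted p = 5.21e-05), with no overlap between the lines. AKR1C1 (ENSG00000187134, chr10:4963253-4983283) had 2062, 2085 and 2720 CPM against 1505, 1634 and 1583 CPM. Every A549 sample lay above every H1792 sample here too, but the log2 difference was 0.58 (SE 0.11, adjusted p = 0.00555).

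The make-up of the AKR1C counts differed between the lines. AKR1C2 took 60.5% ± 0.64 (SD, n = 3) of the summed AKR1C1, AKR1C2 and AKR1C3 counts in A549 with DMSO and 15.5% ± 0.35 in H1792. AKR1C1 took 17.5% ± 0.35 and 52.7% ± 0.79, and AKR1C3 21.96% ± 0.90 and 31.9% ± 0.72. AKR1C2 was the largest of the 3 shares in A549 and the smallest in H1792. With the counts of the 3 genes added up before the fit, the difference between the lines was 2.17 (adjusted p = 2.27e-05).

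**Figure D2:**
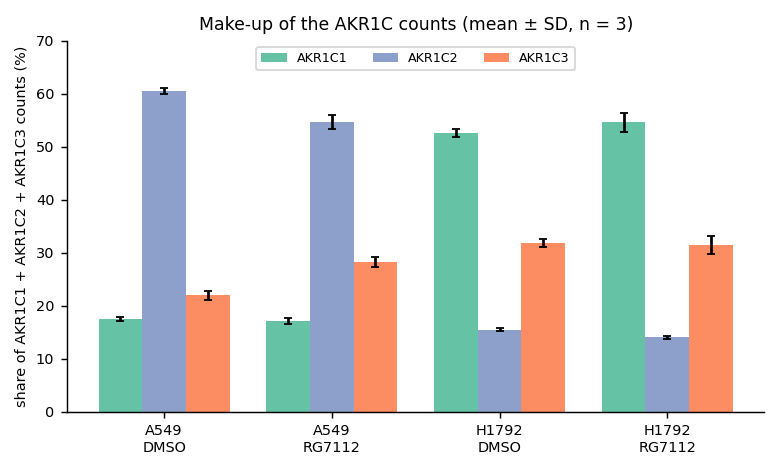
Share of the summed AKR1C1, AKR1C2 and AKR1C3 counts that each gene took (y axis, percent from 0), by cell line and treatment; bars are means and error bars SDs of 3 samples. AKR1C2 held 60.5% in A549 with DMSO and 54.7% with RG7112, and 15.5% and 14% in H1792.

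NQO1 (ENSG00000181019, chr16:69706996-69726951), a quinone reductase that takes its electrons from NADH or NADPH, was abundant in both lines. It had 4055, 4035 and 4932 CPM in A549 and 3353, 3477 and 3238 CPM in H1792. The groups did not overlap, and the log2 difference was 0.41 (SE 0.092, adjusted p = 0.00905). Without H1792 DMSO replicate 3 it was 0.38 (adjusted p = 0.0556).

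TXNRD1 (ENSG00000198431, chr12:104215779-104350305), the cytosolic thioredoxin reductase, had 2681, 2527 and 2324 CPM in A549 and 838, 726 and 757 CPM in H1792. All A549 samples were higher, by a log2 difference of 1.75 (SE 0.11, adjusted p = 4.43e-05). GCLM (ENSG00000023909, chr1:93885205-93909456), the modifier subunit of the enzyme that starts glutathione synthesis, had 77.8, 91.5 and 75.0 CPM in A549 and 32.1, 22.6 and 27.9 CPM in H1792. Its log2 difference was 1.62 (SE 0.19, adjusted p = 0.000659), again with no overlap.

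SLC7A11 (ENSG00000151012, chr4:138164097-138242349), the cystine carrier that feeds glutathione synthesis, was the exception. It had 50.9, 44.7 and 47.1 CPM in A549 and 45.8, 54.7 and 46.2 CPM in H1792, so that the groups overlapped. The log2 difference was 0.004 (SE 0.15, adjusted p = 0.986), and its sign changed with the processing.

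Levels of different genes were compared per kilobase of merged exon length. In A549 with DMSO the order was NQO1 with 1334 ± 157 CPM per kb, AKR1C2 with 1220 ± 179.9, AKR1C3 with 629.5 ± 73.6, TXNRD1 with 374 ± 26.7, AKR1C1 with 261 ± 42.6, AKR1B10 with 54.0 ± 9.51, GCLM with 15.0 ± 1.63 and SLC7A11 with 4.93 ± 0.32. The SD ranges of NQO1 and AKR1C2 overlapped, and those of the other neighbours did not. In H1792 with DMSO the order was NQO1 with 1031 ± 36.6 CPM per kb, AKR1C3 with 210.2 ± 12.5, AKR1C1 with 179.6 ± 7.39, TXNRD1 with 115 ± 8.58, AKR1C2 with 71.8 ± 5.06, GCLM with 5.08 ± 0.87 and SLC7A11 with 5.07 ± 0.52. GCLM and SLC7A11 could not be told apart there. Merged exon length counts every annotated exon, 8.765 kb in AKR1C1 against a median coding transcript of 0.858 kb, and division by the latter put AKR1C2 above NQO1 in A549 and AKR1C1 above AKR1C3 in both lines, and in A549 also above TXNRD1.

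The next comparison asked how the genes changed with RG7112 in A549, where MDM2 and CDKN1A rose. None of the 8 genes was a DEG, and 0 of 8 passed the adjusted p alone in edgeR's quasi-likelihood test, where 1 of 8 (NQO1) did in DESeq2 and in the fit of all 12 samples. At an unadjusted p under 0.05, 2 of the 8 passed in edgeR and 2 in DESeq2, a threshold for which the share of all genes was not computed. Over the 10739 genes tested, 6.19% were DEGs and 8.38% passed the adjusted p alone. The median log2 fold change of the 8 genes was -0.20 and that of all genes -0.015. Without replicate 3 of both treatments, 3 of the 8 passed the adjusted p, with NQO1 at -0.27 (adjusted p = 0.0217), AKR1C2 at -0.25 (0.0226) and TXNRD1 at 0.26 (0.0411).

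NQO1 had 3355, 3316 and 3014 CPM in the A549 samples with RG7112, all below the 4035 to 4932 CPM with DMSO. Its log2 fold change was -0.43 (SE 0.13, adjusted p = 0.0978). AKR1C2 had 5993, 6059 and 6491 CPM, again below all samples with DMSO, and a log2 fold change of -0.35 (SE 0.14, adjusted p = 0.185). These were the members of the list whose A549 groups did not overlap. AKR1C1 had 1868 and 2139 CPM in replicates 1 and 3 and a mean of 1933 ± 182 CPM (log2 fold change -0.24, adjusted p = 0.395) and AKR1B10 had 83.2, 77.2 and 66.01 CPM (-0.32, adjusted p = 0.364). AKR1C3 had 2981, 3034 and 3579 CPM (0.17, adjusted p = 0.546). These 3 genes overlapped with DMSO.

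GCLM had 92.4, 83.0 and 89.6 CPM in A549 with RG7112 (0.12, adjusted p = 0.697). TXNRD1 had 3135, 3053 and 2093 CPM (0.14, adjusted p = 0.701), with replicate 3 below all samples with DMSO and the other replicates above them. SLC7A11 had 45.7, 54.8 and 27.4 CPM (-0.16, adjusted p = 0.772), with replicate 3 the lowest of all 6 A549 samples. Without that sample its log2 fold change was 0.08 (adjusted p = 0.831).

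In H1792, where MDM2 and CDKN1A did not pass the threshold, 6 of the 7 genes tested passed the adjusted p, in both directions, and 0 of 7 were DEGs in edgeR or in DESeq2. At an unadjusted p under 0.05 all 7 passed with either tool, none of them with an absolute log2 fold change over 1. The share of all genes below that unadjusted p was not computed, so this count has no background to be set against. GCLM, TXNRD1 and SLC7A11 rose, and AKR1C1, AKR1C2 and AKR1C3 fell. Over the 9914 genes tested, 14.6% were DEGs and 34.1% passed the adjusted p alone. The median log2 fold change of the 7 genes was -0.16 and that of all genes 0.010. The count fell to 3 of 7 without H1792 RG7112 replicate 2, and lay between 4 and 7 without any other sample.

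**Figure D3:**
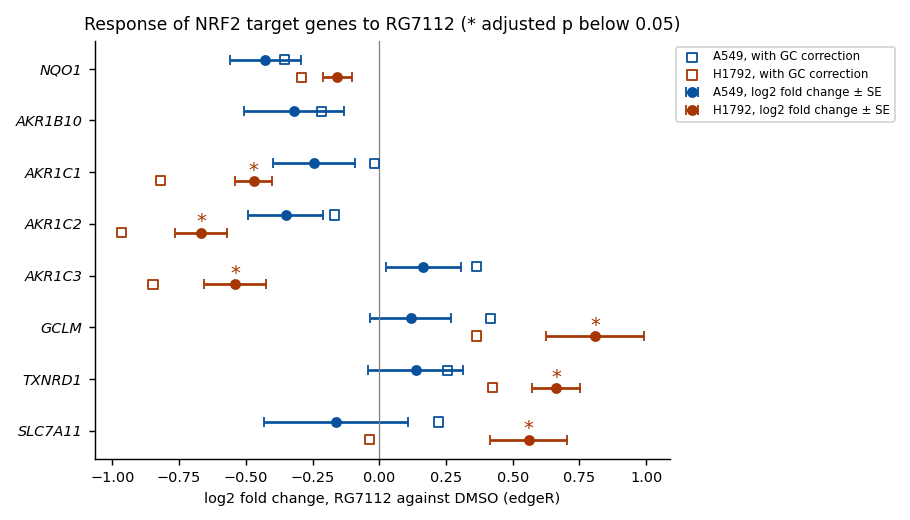
log2 fold change with RG7112 against DMSO (x axis) of each NRF2 target gene in A549 and H1792, from edgeR; filled points are estimates with their SE from 3 samples per group, open squares the estimates after GC correction, and asterisks an adjusted p below 0.05. In H1792 the AKR1C genes lie at -0.47 to -0.67 and GCLM, TXNRD1 and SLC7A11 at 0.56 to 0.81, and SLC7A11 moves to -0.04 with the correction.

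The AKR1C genes fell together in H1792. AKR1C2 had 316, 261 and 255 CPM with RG7112 against 427, 490 and 474 CPM with DMSO. The groups were well apart, with a log2 fold change of -0.67 (SE 0.099, adjusted p = 0.00511). AKR1C1 had 1175, 1037 and 1025 CPM against 1505, 1634 and 1583 CPM, a log2 fold change of -0.47 (SE 0.070, adjusted p = 0.00519). AKR1C3 had 729.5, 603 and 536 CPM against 889, 969.8 and 999 CPM, a log2 fold change of -0.54 (SE 0.12, adjusted p = 0.0147). In all 3 genes every treated sample lay below every control. The 3 genes added up gave -0.52 (adjusted p = 0.00644), a value that does not depend on how reads were divided between them. The AKR1C3 call was lost without DMSO replicate 3 (adjusted p = 0.0506) and without RG7112 replicate 2 (0.0558), and with library size only it gave -0.28 (0.0574).

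NQO1 had 2998, 2823 and 2757 CPM in H1792 with RG7112 against 3238 to 3477 CPM with DMSO. All treated samples were lower, but the log2 fold change of -0.16 (SE 0.055) did not pass the threshold in edgeR (adjusted p = 0.0666). It passed in DESeq2 (0.00469), in limma-trend (0.0473) and without RG7112 replicate 1 (0.0194). Scaled by library size only, which moved the median of all genes from 0.010 to 0.269, NQO1 gave 0.10 (adjusted p = 0.113).

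TXNRD1 had 1169, 1243 and 1081 CPM in H1792 with RG7112 against 838, 726 and 757 CPM with DMSO. All treated samples were higher, with a log2 fold change of 0.66 (SE 0.091, adjusted p = 0.00439). GCLM had 42.4, 48.2 and 46.6 CPM against 32.1, 22.6 and 27.9 CPM, also without overlap, a log2 fold change of 0.81 (SE 0.18, adjusted p = 0.0165). SLC7A11 had 57.4, 74.0 and 73.8 CPM against 45.8, 54.7 and 46.2 CPM, a log2 fold change of 0.56 (SE 0.15, adjusted p = 0.0269). The GCLM call was lost without RG7112 replicate 2 (adjusted p = 0.061) or 3 (0.0558), and the SLC7A11 call without any of 5 of the 6 samples (0.0553 to 0.099) and in the fit of all 12 samples (0.141).

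GC content was set beside the responses, since the 8 genes cover a narrow range of it, from 35.9% in SLC7A11 and 40.4% in GCLM to 47.1% in NQO1. All genes tested were put into 5 bins of equal size by GC content. In H1792 those in the bin with the lowest GC content (33.2% to 42.4%) had a median log2 fold change of 0.59, and 78.7% of them were higher with RG7112. In the bin with the highest GC content (58.6% to 74.2%) the median was -0.44 and 21.2% were higher. In A549 the order was the opposite, with medians of -0.23 in the lowest bin and 0.22 in the highest. SLC7A11, at 0.56 in H1792, lay close to the median of its bin. After a correction for GC content in H1792, SLC7A11 gave -0.04 (adjusted p = 0.858) and GCLM 0.36 (0.158), so that both calls were lost, while TXNRD1 gave 0.42 (0.015). The AKR1C genes, with 43.0% to 44.0% GC, lay in the next bin, with a median of 0.35, and went the other way. Their corrected values were -0.82 for AKR1C1 (adjusted p = 0.00391), -0.97 for AKR1C2 (0.00493) and -0.85 for AKR1C3 (0.00894). NQO1 passed the threshold after the correction, at -0.29 (0.0129).

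**Figure D4:**
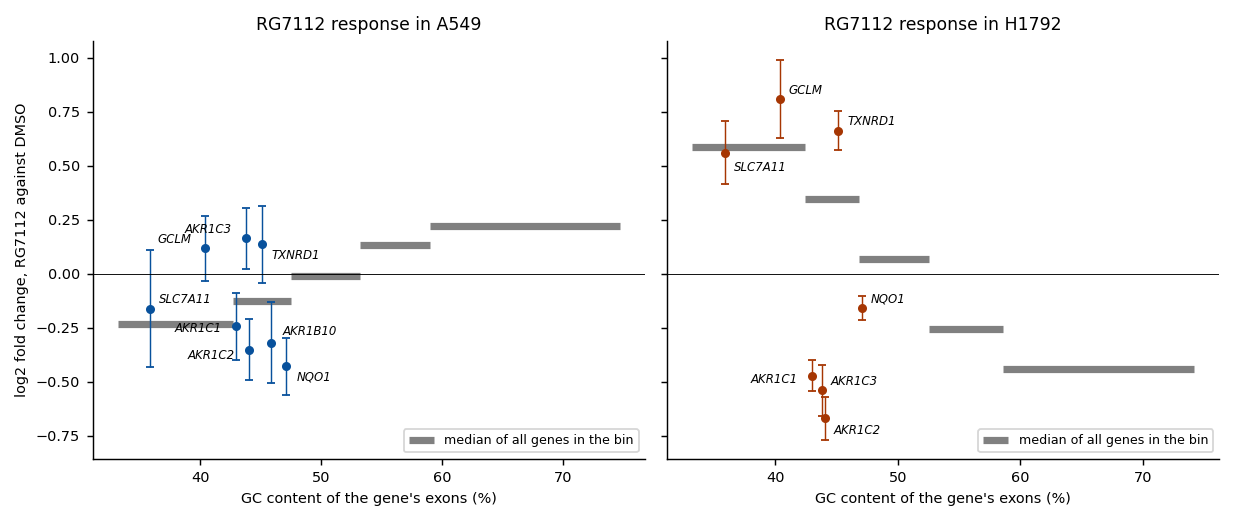
log2 fold change with RG7112 against DMSO (y axis) by GC content of a gene's exons (x axis, percent), in A549 and in H1792; grey bars are the medians of all genes tested in 5 equal bins of GC content, and points the NRF2 target genes with their SE. In H1792 the bars fall from 0.59 to -0.44 and the AKR1C genes lie far below theirs, at -0.47 to -0.67.

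Whether a response differed between the lines was tested as the interaction over the 12 samples. Of the 8 genes, AKR1C3 passed (A549 minus H1792, 0.78, SE 0.19, adjusted p = 0.0149), where it had gone from 2853 ± 334 to 3198 ± 331 CPM in A549 and from 953 ± 56.7 to 623 ± 98.2 CPM in H1792. Over all 11666 genes tested, 21.8% passed. AKR1B10 is counted among the 8 (-2.05, SE 1.25, adjusted p = 0.431). It had at most 1 count in any H1792 sample, so its value cannot show whether the responses differed. GCLM gave -0.62 (SE 0.21, adjusted p = 0.0611), SLC7A11 -0.64 (0.169), TXNRD1 -0.45 (0.131), AKR1C2 0.39 (0.127), AKR1C1 0.30 (0.231) and NQO1 -0.20 (0.327). For 5 of these 6 genes, all but NQO1, a call in H1792 without one in A549 therefore does not show that the responses differed. With the GC correction 3 of 8 passed, AKR1C1 at 0.86 (adjusted p = 0.034), AKR1C2 at 0.86 (0.0249) and AKR1C3 at 1.27 (0.00818), and GCLM turned to 0.11 (0.807) and SLC7A11 to 0.33 (0.321). Without A549 DMSO replicate 3 the count was 4 of 8, and without H1792 DMSO replicate 1 it was 2 of 8. The 3 AKR1C genes added up gave 0.39 (adjusted p = 0.114).

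The AKR1C2 share of the AKR1C counts was 54.7% ± 1.34 in A549 with RG7112, against 60.5% with DMSO, and the AKR1C3 share was 28.2% ± 0.96 against 21.96%. In H1792 the shares stayed within 2 percentage points, with AKR1C1 at 54.6% ± 1.77, AKR1C2 at 14% ± 0.25 and AKR1C3 at 31.4% ± 1.69.

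The regulators of NRF2 were looked at next. NFE2L2 itself had 48.3 to 53.6 CPM in A549 and 46.2 to 54.5 CPM in H1792 with DMSO, which overlapped (log2 difference 0.03, adjusted p = 0.884). It did not pass in A549 with RG7112 (0.04, adjusted p = 0.943) and rose in H1792 to 67.4, 87.7 and 73.3 CPM (0.64, adjusted p = 0.0141). The GC correction took the latter to 0.31 (adjusted p = 0.129), and without RG7112 replicate 2 it was 0.53 (0.0508). KEAP1 had 194.9 to 220.7 CPM in A549 and 224.8 to 255 CPM in H1792 with DMSO (-0.16, adjusted p = 0.208). In H1792 it fell by 0.29 on the log2 scale (adjusted p = 0.0261), and the GC correction turned this into 0.30 (0.0159). The call was also lost with library size only (-0.03, 0.768), with no filter on low counts (0.0685) and without any of 4 of the 6 samples (0.0799 to 0.0971). Its value in A549 was -0.33 (adjusted p = 0.142). BACH1, a repressor that competes with NRF2 for its sites, gave 0.59 in A549 (adjusted p = 0.448), 1.66 in H1792 (0.0507) and -1.14 between the lines (0.134). In H1792 it passed in DESeq2 (0.0193), limma-trend (0.0476), the fit of all 12 samples (0.0364) and with library size only (0.0314), and between the lines without DMSO replicate 1 of H1792 (0.0197).

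Of the 10 listed regulators, 9 were tested in each line, and in H1792 4 passed the adjusted p upward and 2 downward, where 34.1% of all genes passed. The split was 6 upward and 0 downward with library size only and 4 and 0 with the GC correction. MAFK, a small MAF partner of NRF2, rose there from 10.5 ± 2.33 to 32.2 ± 5.52 CPM (1.68, adjusted p = 0.00429). MAFG, another small MAF, had 2, 2 and 0 counts with DMSO and 17, 21 and 14 with RG7112, a ratio of 8.92 (95% counting interval 3.28 to 34.0; adjusted p = 0.0122, and 0.0515 to 0.0559 without RG7112 replicate 2 or DMSO replicate 2). Between the lines, SQSTM1, which encodes the autophagy receptor p62 that binds KEAP1, was higher in A549, 3900 ± 148 against 656 ± 126 CPM (2.62, adjusted p = 4.57e-05). In A549, 0 of the 9 regulators passed the adjusted p in edgeR and 1 in DESeq2. Below an unadjusted p of 0.05 there were 2 with either tool, and the share of all genes there was not computed.

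The wider pathway was described with 7 lists that hold 68 genes, 64 of them with a row. In A549 5 of 56 tested genes passed the adjusted p upward and 1 downward, and 1 each was a DEG, where 8.38% of all genes passed and 6.19% were DEGs. In H1792 13 of 51 passed upward and 12 downward, with 10 and 2 DEGs, where 34.1% of all genes passed and 14.6% were DEGs. Scaled by library size only, the split in H1792 was 17 upward and 8 downward, and with the GC correction it was 13 and 5. Without replicate 3 of both treatments, 14 genes passed in A549 in place of 6. The median log2 fold changes of the tested genes of these lists were 0.078 in A549 and -0.10 in H1792.

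**Figure D5:**
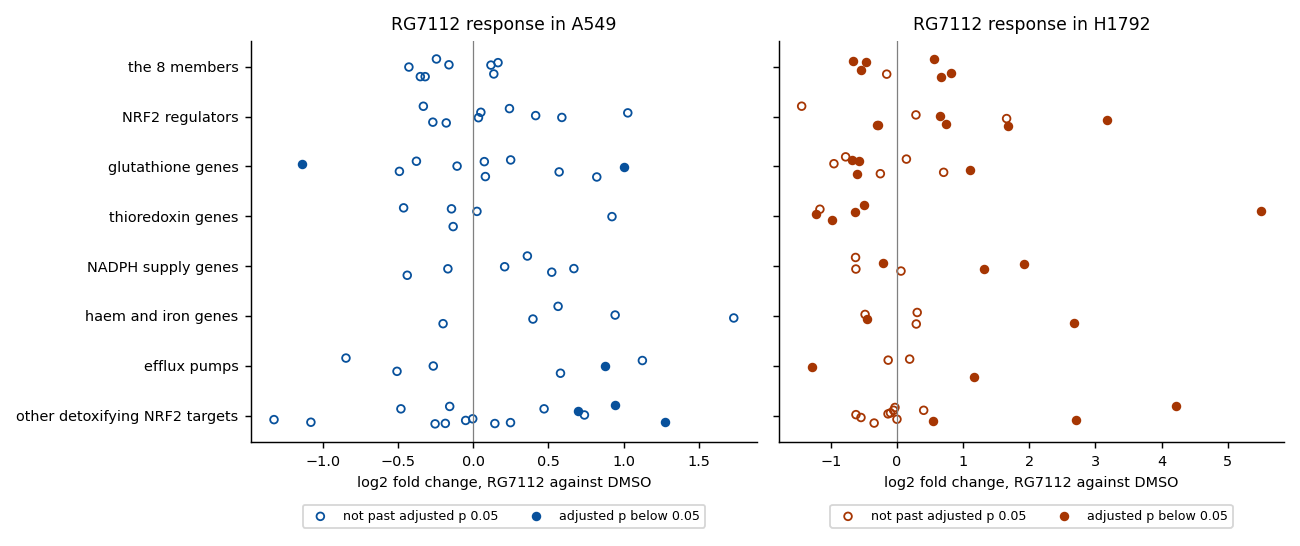
log2 fold change with RG7112 against DMSO (x axis) of every tested gene of the NRF2 lists (rows), in A549 and in H1792; each point is a gene, filled where the edgeR adjusted p was below 0.05, and the vertical scatter within a row carries no value. In H1792 the 25 filled points of the 7 lists outside the members lie on both sides of 0, 13 to the right and 12 to the left.

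In glutathione synthesis, GCLC, the catalytic partner of GCLM, went in opposite directions in the lines. In A549 it fell from 254.9, 226.5 and 186.3 CPM to 116.5, 117.3 and 69.8 CPM (-1.14, adjusted p = 0.0298), and in H1792 it rose from 90.2, 68.8 and 82.4 CPM to 143.6, 168.5 and 177.1 CPM (1.10, adjusted p = 0.00429). No samples overlapped in either line. The difference between the responses passed the interaction test (-2.16, adjusted p = 0.000866). The A549 call was lost without DMSO replicate 1 or 2 or RG7112 replicate 1 or 2 (adjusted p = 0.0692 to 0.108). In the same list GSS, glutathione synthetase, GPX4, which reduces lipid peroxides, and GSTP1, a glutathione transferase, fell in H1792 by 0.58, 0.69 and 0.61 on the log2 scale. They complete the 4 genes of the list past the adjusted p there and were named after their values were seen. All 3 downward calls were lost with the GC correction.

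SLC3A2, the heavy chain that pairs with SLC7A11 at the membrane, fell in A549 from 531 ± 36.8 to 166 ± 11.6 CPM (-1.68, adjusted p = 0.0007). SLC3A2 was the only DEG there of the 6 tested genes in a list of ATF4 targets and partners of SLC7A11, where 6.19% of all genes were DEGs. In H1792 it went from 519 ± 30.6 to 492 ± 22.8 CPM, and the responses differed (-1.60, adjusted p = 3.12e-05). Among these genes ASNS, asparagine synthetase, DDIT3, which encodes the stress factor CHOP, and ATF4 were lower in A549 than in H1792 by 4.27, 3.58 and 1.09 on the log2 scale (adjusted p = 0.000828, 0.00226 and 0.00351). They were the 3 DEGs between the lines of the 6 tested genes, where 35.5% of all genes were DEGs.

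Of the thioredoxin genes, 5 of 9 were tested in A549 and 6 in H1792. TXN, the substrate of TXNRD1, had 2 counts or fewer in every sample although growing cells use it, so the table holds almost no reads for it, and TXNRD1 could not be set beside its partner. In H1792 4 of the 6 genes passed the adjusted p downward and 1 upward, where 34.1% of all genes passed. PRDX5, a peroxiredoxin, gave -1.23 (adjusted p = 0.00634), -0.67 (0.0399) with the GC correction and -1.30 (0.129) in the fit of all 12 samples. TXNIP, an inhibitor of thioredoxin, rose from 0, 0 and 1.31 CPM to 18.9, 10.3 and 18.6 CPM, 211 against 3 counts (ratio 48.3, 95% counting interval 16.3 to 236; adjusted p = 0.00739). PRDX6 was lower in A549 than in H1792, 280.2 ± 13.9 against 897 ± 44.0 CPM (-1.63, adjusted p = 2.06e-05).

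Of the NADPH supply genes, IDH1, the cytosolic isocitrate dehydrogenase, rose in H1792 (1.31, adjusted p = 0.0128, and 0.114 in the fit of all 12 samples). In A549 0 of 6 passed the adjusted p in edgeR and 1 in DESeq2. Below an unadjusted p of 0.05 there were 2 with either tool, again without a share of all genes to compare.

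FECH, the last enzyme of haem synthesis, rose in H1792 from 4.93 ± 1.69 to 29.7 ± 5.80 CPM (2.67, adjusted p = 0.00316) and was higher in A549 with DMSO (2.67, adjusted p = 0.00128), as was BLVRB, biliverdin reductase B (3.30, adjusted p = 0.000138). Of the efflux pumps, ABCB6 fell (-1.29, adjusted p = 0.0125) and ABCC4 rose in H1792 (1.16, adjusted p = 0.0233), the latter call being lost after the GC correction (0.86, adjusted p = 0.0609) and without any of 4 of the 6 samples (0.0578 to 0.0784). ABCC2, a pump for glutathione conjugates, was higher in A549, 173 ± 14.1 against 2.21 ± 2.62 CPM (6.55, adjusted p = 0.000164), as were ABCC3 (1.42) and ABCC4 (2.16). GPX2, the gastrointestinal glutathione peroxidase, had 4 counts in the 3 H1792 samples with DMSO together and 1946 in those of A549, a ratio of 352 (95% counting interval 137 to 1294). GGT1 was higher in A549 (5.14) and GSTM3 lower (-3.20).

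Among the other detoxifying targets, 10 of 13 tested genes were DEGs with a higher level in A549 and 1 with a lower level, where 35.5% of all genes were DEGs. ALDH3A1, an aldehyde dehydrogenase, had 3292 ± 223 CPM in A549 and 18 ± 5.47 CPM in H1792 (7.60, adjusted p = 7.57e-06), AKR1B1 was higher by 3.42 and AKR1B15, which shares sequence with AKR1B10, by 4.01. With RG7112 ALDH3A1 rose in A549 to 6447, 6636 and 10830 CPM (1.28, adjusted p = 0.0156, and 0.0779 and 0.0704 without DMSO replicates 1 and 2). In H1792 UGDH, which makes the UDP-glucuronate used in conjugation, rose from 6.53 ± 2.34 to 40.8 ± 9.88 CPM (2.71, adjusted p = 0.00352) and CBR1, a carbonyl reductase, from 0.76 ± 0.71 to 12.5 ± 2.77 CPM (4.22, adjusted p = 0.00917). CBR1 had only 4, 0 and 2 counts with DMSO there, and its call was lost with the replicate block and the GC correction together (adjusted p = 0.0564).

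Finally, genes outside the lists were ranked by how closely they followed the mean of the members. After each line's mean was subtracted, the 12 samples gave Pearson's r of 0.955 for CBWD1, 0.920 for URI1 and 0.915 for NDUFB6 with the mean of the standardised log2 CPM of the 8 genes, the highest of 11576 genes. The 8 genes did not move together, since GCLM, TXNRD1 and SLC7A11 rose and the AKR1C genes fell in H1792. The mean thus joins opposite responses, and it holds AKR1B10, with at most 1 count in any H1792 sample. The samples share libraries and treatments, so this is a description only. No correlation was computed on levels without this subtraction, since the lines form separate clusters.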

How the data were processed

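RNA was measured in 12 samples of A549 and H1792 cells. Per the study's methods and the submitters' processing notes, kallisto v0.45.0 estimated abundances on Ensembl GRCh38.95, and the authors added them up to genes with biomaRt annotation. The deposited values are expected counts (estimated counts) as whole numbers, without normalization, and were rounded before use. The labels and the methods differ on read length. All 12 columns were used, with 0 left out. Of the 20595 identifiers, 18011 are in GENCODE v29 (GRCh38), which gave symbols, positions, length and GC content.

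With edgeR 4.0.16 in R 4.3.3, genes were filtered by filterByExpr (minimum count 10, total 15), normalised by TMM and tested by quasi-likelihood with Benjamini-Hochberg adjustment over all genes. Each comparison used its own groups, and the interaction all 12 samples. On simulated data with 200 genes changed by 2 on the log2 scale, 193 (96.5%) were recovered in each 2-group comparison and 106 (53.0%) in the interaction. The simulation gave all genes the same dispersion, changed only well-counted genes, and held no outlying replicate or trend with GC content. Its change was larger than any response of the 8 genes to RG7112 within a line. The shares recovered therefore do not give the power for the member responses. Alternatives used DESeq2 1.42.0, limma 3.58.1, other scalings, filters and thresholds, a GC correction (loess, span 0.5), the replicate number as a block, and samples left out. Nothing says that replicates came from separate cultures, so p-values measure a spread that may be technical. Counting intervals and floors cover counting error only.

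The members and lists were chosen with earlier results of these data known. Besides the members, NFE2L2, KEAP1, BACH1, MDM2 and CDKN1A, genes were named where they were DEGs, up to the 3 with the smallest p per list and comparison. CD68 was named after its values were seen. SRXN1, ME1, FTL, CBR3, SESN2 and TRIM16L were not analysed here, nor protein sequences. Of the genes that the rule and the marker lists hold, some are not reported here.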

Additional observations from a re-analysis of the deposited data

Results flagged for a closer look

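These results are listed because the responses to RG7112 differed between A549 and H1792 in the interaction test of edgeR over the 12 samples, among the genes named above. Each value is the log2 change of A549 less the one of H1792, followed by its adjusted p.

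Of the 8 NRF2 target genes, AKR1C3 differed, by 0.78 (SE 0.19, adjusted p = 0.0149). In the NRF2 regulators MAFK gave -1.55 (0.0205) and MAFG -3.27 (0.0216), with rises past the test in H1792 and not in A549. The MAFK call was lost without any of 4 of the 12 samples (0.0504 to 0.0512) and that of MAFG without H1792 DMSO replicate 2 (0.0547). GCLC gave -2.16 (0.000866), having fallen in A549 and risen in H1792. GGT1 gave 2.04 (0.00602), going from 171.5 to 343 CPM in A549 and from 5.03 to 2.47 CPM in H1792.

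FECH gave -2.79 (0.0016), ABCB6 2.49 (0.00313), ABCC4 -1.35 (0.0435) and ABCC3 0.76 (0.00904), where ABCC3 went from 837 to 1533 CPM in A549 and from 323 to 349 CPM in H1792. The ABCC3 value fell to 0.31 (adjusted p = 0.326) and that of ABCC4 to -0.92 (0.116) with the GC correction. With library size only ABCC3 gave 0.35 (0.242), and the ABCC4 call was lost without any of 7 of the 12 samples (0.0771 to 0.0971). UGDH gave -3.70 (0.00144), CBR1 -5.47 (0.0169) and AKR1B1 1.65 (0.000698). CBR1 gave -5.13 (0.0559) with the replicate block and ranged from 2.74 to 33.4 CPM in A549 with DMSO.

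SLC3A2 gave -1.60 (3.12e-05). The p53 targets TP53I3 (2.745, adjusted p = 5.2e-06), FDXR (2.60, 0.00703), MDM2 (3.12, 0.00604), GDF15 (0.915, 0.00697) and CDKN1A (3.405, 0.045) responded more in A549. CDKN1A stood at 942 CPM in replicate 3 of A549 with RG7112 against 203.0 and 189.7 CPM in the others. Without replicate 3 of both treatments it gave 1.99 (0.0965). Its call was also lost with library size only (0.0623), with no filter on low counts (0.0758), in limma-trend (0.0503), with the replicate block (0.152), with the GC correction (0.0897) and without any of 9 of the 12 samples (0.0686 to 0.156). GDF15 gave 0.23 (0.165) with the GC correction.

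The immune marker CD68 gave 2.18 (0.0384). This was lost with library size only (0.083), with no filter on low counts (0.053), with the replicate block (0.0937), with the GC correction (0.0946), without both A549 replicates numbered 3 (0.0824) and without any of 8 of the 12 samples (0.0502 to 0.0922).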

How the results depend on the processing

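Of the 8 NRF2 target genes, the number past the adjusted p in A549 with RG7112 was 0 and became 1 with DESeq2, with library size only and with all 12 samples in one fit, and 3 without both replicates numbered 3. It stayed 0 (0 to 0) when any sample was left out. In H1792 the number was 6 of 7 and became 3 with the replicate block, 3 with the replicate block and the GC correction together and 3 at an adjusted p under 0.01, and it ranged from 3 to 7 with a sample left out. The count of DEGs there was 0 and became 1 with library size only and 6 with no fold change threshold. Between the lines the counts stayed within 1.5 times. In the interaction 1 gene passed, with 2 in DESeq2, 4 with library size only, 2 with at least 10 counts in every sample, 3 with the GC correction, 3 with this and the replicate block, 3 without both A549 replicates numbered 3, 0 at an adjusted p under 0.01, and 1 to 4 with a sample left out.

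Pairing by replicate number was looked for in the correlations of deviations from the group means. In H1792 these were -0.024, -0.002 and 0.003 for equal numbers and -0.016 to 0.018 for unequal ones, so no pairing was seen. In A549 they were 0.115, 0.061 and 0.273 for equal numbers and -0.209 to 0.136 for unequal ones. Replicate 3 correlated positively only with its own number there. Replicates 1 and 2 correlated with either, so pairing in A549 is not settled. With the replicate block, the genes past the adjusted p in H1792 went from 3384 to 1840 and those in A549 from 900 to 938. Among the NRF2 target genes in H1792, AKR1C3 (adjusted p = 0.0549), GCLM (0.0596) and SLC7A11 (0.0629) lost their calls with the block, and TXNRD1 (0.0613) with the block and the GC correction. The ABCC4 (0.0769), KEAP1 (0.103) and MAFG (0.0505) calls there and that of CDKN1A in A549 (0.0672) were lost with the block as well, and BACH1 passed in H1792 (0.038).

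Directions reversed in these cases. In A549 with RG7112, SLC7A11 gave 0.223 with the GC correction, 0.216 with the block added, 0.071 without both replicates numbered 3 and -0.368 to 0.081 with a sample left out, and NFE2L2 gave -0.019 with library size only and -0.193 to 0.167 with a sample left out. The summed AKR1C genes gave -0.204 there, where AKR1C3 alone gave 0.165, and the sum is not an estimate for AKR1C3. In H1792, NQO1 gave 0.102 with library size only, SLC7A11 -0.037 and KEAP1 0.299 with the GC correction (-0.038 and 0.298 with the block), MDM2 0.218 with library size only, 0.028 with at least 10 counts, 0.015 with limma-trend, 0.009 with the block and -0.331 to 0.23 with a sample left out, and CDKN1A -0.313 to 0.987 with a sample left out. Between the lines, SLC7A11 gave -0.017 with DESeq2, -0.011 with RLE, -0.012 with no filter, -0.109 with the GC correction, -0.103 with the block added, -0.044 with all samples and -0.059 to 0.069 with a sample left out. NFE2L2 gave -0.010, -0.009, -0.019 and, without both replicates numbered 3, -0.009, and -0.057 to 0.061 with a sample left out. KEAP1 gave 0.061 with library size only. In the interaction, the GC correction turned NQO1 to 0.008, GCLM to 0.110 and SLC7A11 to 0.326 (0.016, 0.098 and 0.316 with the block), and library size only, which moved the median of all genes to -0.372, turned AKR1C1 to -0.093 and AKR1C2 to -0.001. The cause was not tested.

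Divided by the median length of the coding transcripts, a choice made after seeing the data, the levels in A549 with DMSO were 4281 CPM per kb for NQO1, 6113 for AKR1C2, 2668 for AKR1C1, 2402 for AKR1C3, 1299 for TXNRD1 and 20.7 for GCLM. In H1792 they were 3310 for NQO1, 1835 for AKR1C1, 802 for AKR1C3, 400.2 for TXNRD1, 359.5 for AKR1C2 and 6.999 for GCLM.

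The counts over all genes moved by more than 1.5 times in places. Those past the adjusted p in A549 (900) ranged from 296 at an adjusted p under 0.01 to 1557 with all 12 samples, and from 321 to 725 with a sample left out; the DEGs (665) were 279 at the stricter p and 310 to 526. In H1792 those past the adjusted p (3384) reached down to 956 with block and GC correction and 1383 at the stricter p, with 1851 to 3377 with a sample left out, and the DEGs (1450) to 563 and 722, with 920 to 1642. Between the lines, 3665 DEGs became 2126 with at least 10 counts in every sample, and 5134 past the adjusted p became 3362 at the stricter p. In the interaction 2539 became 1671 with block and GC correction and 848 at the stricter p, with 1584 to 2978. Pathway genes past the adjusted p went from 6 to between 1 and 14 in A549, from 25 to between 8 and 29 in H1792 and from 14 to between 7 and 24 in the interaction.

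Among the members, 44 of 48 values between the lines kept direction and side of the threshold with a sample left out, 47 of 48 in A549, 32 of 42 in H1792 and 80 of 84 in the interaction. With 3 samples a group and 2011916 to 6218825 counts each, genes such as MAFG, TXNIP, CBR1 and BACH1 rest on few counts. The split of reads between AKR1C1 and AKR1C2 is an estimate.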
